A study of Mus musculus with 6 samples.

Results

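The comparison set the liver of C57BL/6J mice fed a high-fat diet against the liver of mice fed a control diet at week 4. It was chosen by the diet and week in the sample labels and holds 2 of the 6 arrays of the series, 1 per diet. The series profiled both diets at weeks 2, 4 and 10, with random allocation of mice to the diets, to follow how the liver responds as mice become obese and to pick genes of lipid metabolism for further assays. C57BL/6J is an inbred strain prone to obesity on such diets. The high-fat group is called HFC in the design text, and the composition of either diet, the age and the sex of the mice and the time of day of collection are not given in the sources used here. The labels do not give the number of mice per array, although RNA was prepared from the frozen liver of each mouse.

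With 1 array per diet the differences have no replicate check, so they are given as sizes, with no test. Diet, mouse and array cannot be told apart. Each difference was instead set against the other probe sets of the same gene and against the brightness of the signal. The week 4 arrays are of the larger of the 2 Affymetrix designs in the series, with 45101 probe sets, of which 22690 are also on the smaller design used at weeks 2 and 10. A probe set is a group of short probes for 1 transcript, and its value is a linear signal intensity. Differences are log2 of high-fat over control, so a value of 1 is a doubling and 0 no difference. Each array was first centred on its median over the probe sets above a floor, given below, on both arrays. Signals are printed as deposited, while centring lowered the log2 values of the high-fat array by 0.04 and raised those of the control array by 0.04. Signals below a floor of 100.8 were set to it, and a difference with 1 array at the floor is a bound, written as at least. A gene was measured if its brightest probe set lay above the floor on at least 1 array, which held for 12718 of 18193 named genes, 10450 of them on both arrays.

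The liver makes cholesterol from acetyl-CoA through the mevalonate pathway, and the transcription factor SREBP2 turns on nearly all genes of the pathway when membranes of the endoplasmic reticulum are short of sterol. Sterol that is plentiful holds SREBP2 there through the INSIG proteins. Fatty acids come to the liver from the blood, from lipoproteins and from synthesis in place, and are burnt, stored as triglyceride in lipid droplets or sent out in lipoproteins. Hepatocytes in the adult liver seldom divide.

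The high-fat array had 200 genes with at least 2-fold more signal (1.57% of those measured) and 419 with at least 2-fold less (3.29%). The balance between the directions depended on the scaling. It was 273 higher and 324 lower with the values as deposited, 285 and 282 after quantile normalization, and 271 and 259 after a loess correction for brightness. With a floor at the 70th percentile in place of the 50th it was 71 and 87, and with the arrays centred on their spiked-in controls it was 2203 and 43. Of all measured genes, 60% were lower by any size. Lists of genes are counted below at 1.5-fold, which 6.71% of all measured genes passed on the higher and 14.1% on the lower side, or 8.39% and 9.92% after loess. Those shares are the background of every list count.

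The genes of cholesterol synthesis were lower on the high-fat array as a group. Of the 20 genes on the list 17 were measured, all 17 had lower values, and 16 were at least 1.5-fold lower, where 14.1% of all measured genes were. Their median difference was -1.53, against -0.10 for all genes measured. The other 3 were not analysed here. In bulk tissue, fewer cells of a type and less RNA per cell cannot be told apart, here and for every list below.

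The steps up to farnesyl diphosphate held 6 measured genes with a median of -1.66. Hmgcs1, the synthase that makes HMG-CoA, had a signal of 32995 in control and 11005 in high-fat liver, a difference of -1.67 or 3.19-fold. Its 3 further measured probe sets gave -1.82, -1.36 and -1.34. All 4 probe sets thus lay on the same side, at very different brightness. Mvk, mevalonate kinase, read 1499.1 in control and 493.9 in high-fat liver (-1.69), and its further probe set was at least 2.39 lower on the log2 scale with the high-fat array at the floor. Pmvk, phosphomevalonate kinase, had 2137.6 and 1176.7 (-0.95). Mvd, the decarboxylase that follows, had 811.0 and 275.5 (-1.65), with -1.66 on its further probe set. Idi1, the isomerase of isopentenyl diphosphate, was among the most different members, with 5759.5 in control and 1442.9 in high-fat liver (-2.08, 4.24-fold). Its further probe set gave -2.11. Fdps, farnesyl diphosphate synthase, had 12459 and 4438.9 (-1.58).

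The 3 genes that lead from there to lanosterol were lower as well. Fdft1, squalene synthase, had 8960.7 in control and 3875.8 in high-fat liver (-1.30), and -1.64 on its further probe set. Sqle, squalene epoxidase, had 3069.3 and 829.4 (-1.98), with no further measured probe set. Lss, lanosterol synthase, had 1862.0 and 782.3 (-1.34), while its 2 dimmer probe sets gave -0.59 and -0.49, lower but smaller in size.

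The 8 genes after lanosterol ranged from -2.22 to -0.58, with a median of -1.17. Msmo1, the sterol C4 methyl oxidase, differed most in the list, with 15388 in control and 3499.3 in high-fat liver (-2.22, 4.67-fold). Cyp51, the lanosterol demethylase, had 2888.7 and 1025.1 (-1.58), and -1.25 and at least 0.21 lower on its further probe sets. Nsdhl, which works with Msmo1 to remove the C4 methyl groups, had 4156.2 and 1531.4 (-1.53). Hsd17b7, the ketoreductase of the same reaction, had 3142.2 and 1390.8 (-1.26), and -1.08 and -0.87 on further probe sets. Those 4 genes encode the demethylation of lanosterol, and all were more than 2-fold lower. Dhcr7, the last reductase, gave -1.07, Tm7sf2, a sterol C14 reductase, -0.99, and Ebp, the sterol isomerase, -0.64, which turned to 0.0746 with spiked-in centring. Sc5d, the sterol C5 desaturase, was the member that stayed short of 1.5-fold at -0.58, with -0.30 and -0.24 on further probe sets.

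Further probe sets went the same way for this list. Of the 8 members that were at least 1.5-fold lower and had a further measured probe set, 8 had at least 1 further probe set at least 1.5-fold lower and none at least 1.5-fold higher. Over all genes with a further probe set, 22.3% had such a further probe set, whatever the brightest did. The members lay from the middle to the bright end of the signal range, and after loess 15 of 17 were at least 1.5-fold lower (9.92% of all genes) with a median of -1.35. Centred on the spiked-in controls, under which the median of all genes was 0.58, the list median was -0.81 and 10 of 17 were at least 1.5-fold lower. The 3'/5' ratio of pyruvate carboxylase, a sign of RNA integrity and labelling, was 4.26 in control and 7.78 in high-fat liver. The same ratio was 2.15 and 2.35 for actin and 0.82 and 0.81 for Gapdh, and the part of RNA integrity in these differences was not tested.

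**Figure D1:**
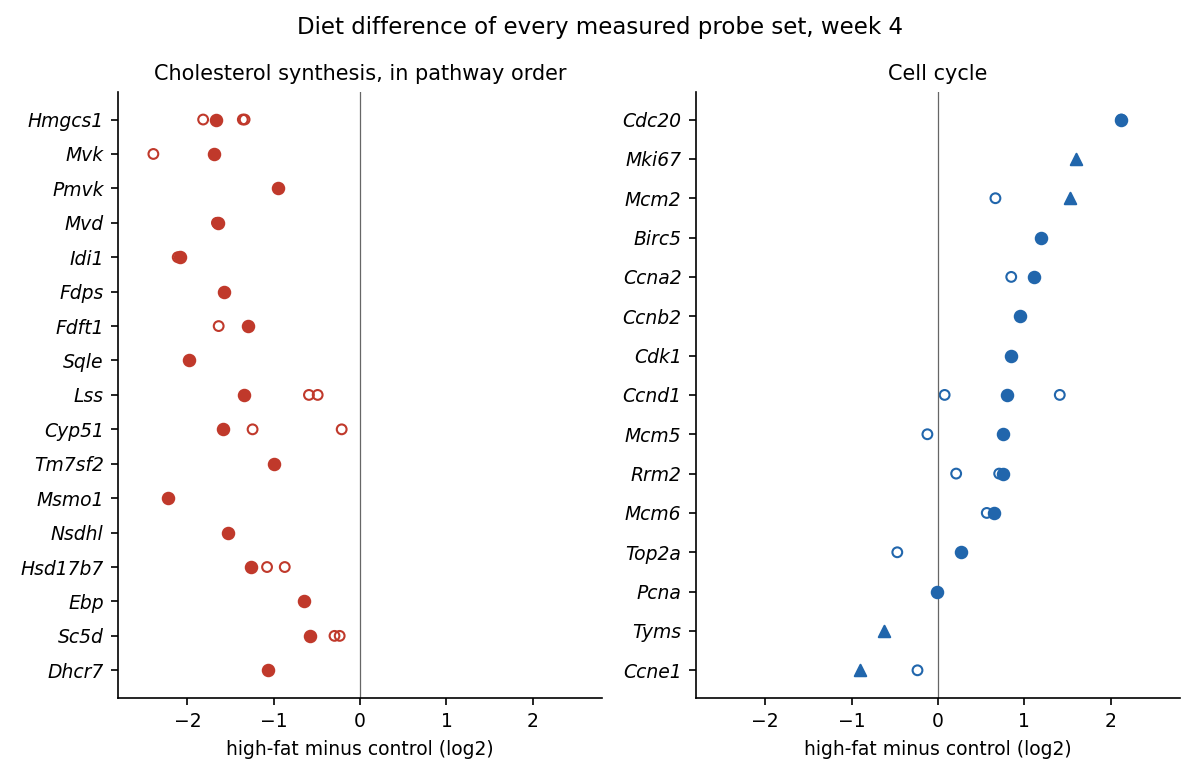
Difference between high-fat and control liver at week 4 (x axis, log2) for every measured probe set of the genes of cholesterol synthesis, ordered from the start of the pathway to its end, and of the cell cycle list, ordered by size. Filled marks are the brightest probe set of each gene (triangles where 1 array was at the floor, so that the value is a bound) and open circles the further ones; all marks of the sterol genes lie left of 0, and those of the cell cycle genes lie mostly right of it.

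Genes that sense, take up or export sterol differed less. Of 13 measured members 1 was at least 1.5-fold lower and none higher, and the median of -0.36 turned to 0.36 when the arrays were centred on the spiked-in controls. The member that passed was Insig1, which retains the SREBP2 complex when sterol is plentiful and is itself a target of SREBP2. Its signal was 4441.8 in control and 2055.3 in high-fat liver (-1.20), and only the larger array holds it. Srebf2, the gene of SREBP2, gave -0.38 on its brightest and -1.31 on its further probe set. Stard4, a sterol carrier, gave -0.41, and -1.16 and -0.28 on further probe sets. Scap, the escort of SREBP2, was at -0.58, with no further measured probe set. The sterol exporters Abca1 and Abcg5 lay on the other side with 0.41 and 0.42, and Abcg8, the partner of Abcg5, was at 0.00. Scarb1 gave -0.50, Nr1h3 -0.43, Npc2 -0.36, Mylip -0.35, Insig2 -0.28 and Npc1 -0.02. Further probe sets gave 0.23 and 0.23 for Insig2, -0.06 and 0.25 for Scarb1, and -0.25 and -0.07 for Npc2.

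Since these genes were lower together, their promoters were read for 3 short motifs on both strands, in the 250 bases before the start of each gene. CCAAT is the box bound by NF-Y, TCACNCCAC is a form of the sterol regulatory element with any base at its N, and CACGTG is the E-box. RefSeq sequences of the build GRCm38.p6 were at hand for 14 of the 17 measured genes of cholesterol synthesis. CCAAT occurred in 14 of the 14, against 37.5% of all 27025 genes with a promoter and 39.6% of the 10274 measured. TCACNCCAC occurred in 1 of the 14, Hmgcs1, against 1.22% and 1.31%, and CACGTG in 3, against 6.86% and 9.68%. Among 10 genes of sterol sensing and uptake, 6 held CCAAT. A match describes the letters in the window and does not show a bound site. A promoter without a match may still hold other forms of the element, which were not searched. The promoters of 3 synthesis genes with large differences and of Insig1 are printed from 5' to 3', ending at the base before the start, with every match in capitals (ATTGG is CCAAT read on the other strand).
Hmgcs1, chr13:119690101-119690350, plus strand: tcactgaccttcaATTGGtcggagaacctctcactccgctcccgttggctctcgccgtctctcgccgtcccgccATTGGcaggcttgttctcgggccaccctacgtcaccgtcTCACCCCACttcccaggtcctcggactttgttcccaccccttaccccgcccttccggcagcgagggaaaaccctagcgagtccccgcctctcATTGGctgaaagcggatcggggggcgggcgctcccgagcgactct
Idi1, chr13:8885356-8885605, plus strand: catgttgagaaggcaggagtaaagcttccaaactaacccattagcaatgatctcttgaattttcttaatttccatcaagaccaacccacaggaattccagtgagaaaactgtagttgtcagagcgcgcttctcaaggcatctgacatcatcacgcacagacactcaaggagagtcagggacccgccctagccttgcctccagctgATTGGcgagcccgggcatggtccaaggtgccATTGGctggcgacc
Mvk, chr5:114444019-114444268, plus strand: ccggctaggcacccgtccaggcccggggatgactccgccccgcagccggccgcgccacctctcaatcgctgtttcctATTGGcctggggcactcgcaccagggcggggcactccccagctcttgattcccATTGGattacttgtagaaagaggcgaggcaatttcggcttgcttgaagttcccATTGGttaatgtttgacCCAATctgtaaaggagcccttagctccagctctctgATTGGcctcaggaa
Insig1, chr5:28071162-28071411, plus strand: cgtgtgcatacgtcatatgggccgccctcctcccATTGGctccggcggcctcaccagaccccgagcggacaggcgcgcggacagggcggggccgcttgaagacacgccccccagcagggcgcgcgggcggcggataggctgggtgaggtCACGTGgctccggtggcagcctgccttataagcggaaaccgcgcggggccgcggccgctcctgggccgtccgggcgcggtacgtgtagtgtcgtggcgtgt
The Hmgcs1 promoter holds 3 CCAAT boxes and the TCACNCCAC match, which begins 137 bases before the start. That of Idi1 holds 2 CCAAT boxes and that of Mvk 5, while Insig1 has 1 CCAAT box and 1 CACGTG. Their differences at week 4 were -1.67, -2.08, -1.69 and -1.20 in that order.

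Cell cycle genes gave more signal in high-fat liver. Of 15 measured members 11 were at least 1.5-fold higher, where 6.71% of all measured genes were, and 2 were at least 1.5-fold lower. The median was 0.80. After loess 11 were at least 1.5-fold higher (8.39% of all genes), with a median of 0.92. Cdc20, which activates the anaphase-promoting complex, had 134.0 in control and 620.2 in high-fat liver (2.12, 4.36-fold). A further probe set was at least 2.12 higher with the control array at the floor. Mki67, which encodes the proliferation antigen Ki-67, had 69.6 and 314.3, a difference of at least 1.60, and Mcm2, a subunit of the replicative helicase, 95.9 and 299.4, at least 1.53, with 0.67 on its further probe set. For both, the control signal was below the floor.

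The mitotic genes Birc5 (survivin), Ccna2 (cyclin A2), Ccnb2 (cyclin B2) and Cdk1 gave 1.19, 1.11, 0.95 and 0.85. Ccna2 had 122.0 in control and 279.4 in high-fat liver, and 0.85 on its further probe set. Ccnd1, cyclin D1, which leads cells out of G1, was one of the few members far above the floor, with 2017.2 and 3733.1 (0.80), and its further probe sets gave 1.41 and 0.08. The helicase subunits Mcm5 and Mcm6 gave 0.76 and 0.65, with -0.12 and 0.57 on further probe sets. Rrm2, of ribonucleotide reductase, gave 0.75, and 0.71 and 0.21 on further ones. Top2a, the topoisomerase of dividing cells, was at 0.27 with -0.47 on its further probe set, and Pcna, the sliding clamp, at -0.01. The members that were lower, Ccne1 and Tyms, had 1 array at the floor, with differences of at least 0.91 and 0.63 in size. Ccnb1 was not analysed here.

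Most members of this list lay close to the floor. With the floor at the 70th percentile, 4 of 8 measured members were at least 1.5-fold higher and the median was 0.41. A further measured probe set existed for 8 members at least 1.5-fold different. For 5 of them one was at least 1.5-fold the same way, with none the other way. Of all genes with a further probe set, 11.4% had such a set on the higher side, whatever the brightest did. Among the 84 at least 2-fold higher on the brightest, the share was 42.9%. A second list of 45 replication and mitosis genes, put together after the data were seen, had 33 measured members, of which 9 were at least 1.5-fold higher and 2 lower, with a median of 0.17. Its higher members included Ube2c, a ubiquitin ligase partner of the anaphase-promoting complex (1.15), the kinetochore gene Spc25 (1.12), Cdca3 (1.14, but at least 0.53 lower on its further probe set) and the licensing factor Cdt1 (1.01, with 0.05). By any size 24 members of this second list were higher and 9 lower. Lower ones included Kif11 (-0.61) and Rrm1 (-0.45, with 0.06 on its further probe set). Genes of the list that were not measured, among them Plk1, Foxm1, Bub1 and Aurkb, lay at or below the floor on both arrays. The median of the wider list was thus smaller than that of the first. Markers of other cells beside these lists had medians of 0.11 for 16 lymphocyte and neutrophil genes, 0.04 for 18 macrophage and Kupffer cell genes, 0.27 for 19 stellate cell and matrix genes and -0.26 for 13 endothelial and bile duct genes, and their part in the cell cycle values was not tested.

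Genes of lipid uptake and droplets went both ways, and those past 1.5-fold lay more often on the higher side. Of the 23 measured, 6 passed that size upwards and 4 downwards, beside 6.71% and 14.1% of all measured genes. By any size the split was 12 to 11, and the median was 0.10. After loess 8 passed upwards and 2 downwards, beside 8.39% and 9.92%, with a median of 0.24. Lpl, lipoprotein lipase, which frees fatty acids from circulating triglyceride and is made at low level in the adult liver, had 1230.9 in control and 5891.4 in high-fat liver (2.17, 4.50-fold). Its further probe set had 316.6 and 1306.7 (1.96). Fabp5, a fatty acid binding protein, had 5179.4 and 16751 (1.61), and 1.63 on its further probe set. For both genes the probe sets gave differences of similar size. Fabp2, the intestinal fatty acid binding protein, was higher by 1.26, the droplet protein Plin5 by 0.96 (0.30 on its further probe set) and the lipoprotein receptor Vldlr by 0.79 (-0.31 to 0.59 on further ones). Fabp4 gave 0.63, with 1.33 on a further probe set, and was lower by at least 0.25 and 0.17 on the others. Cd36, a fatty acid transporter, gave 0.36 on its brightest and 0.53 to 0.90 on its further probe sets. Lipe, hormone-sensitive lipase, was lower at -1.19, and by at least 0.07 on its further probe set. The other lower genes were Slc27a5, an acyl-CoA synthetase of bile acids (-0.79, -0.25 after loess), the droplet protein Plin4 (at least 0.74 lower) and Fabp1, the liver fatty acid binding protein. Fabp1 gave -0.61, and -0.59 on its further probe set, but 0.15 after loess. The adipocyte genes Adipoq, Lep and Retn lay at or below the floor on both arrays.

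Fatty acid and triglyceride synthesis went slightly the other way from cholesterol synthesis. Of 23 measured members 4 were at least 1.5-fold higher and none lower, with a median of 0.20 that was 0.46 after loess. The 4 were Elovl6, a fatty acid elongase (1731.2 in control and 3709.5 in high-fat liver, 1.01), Pnpla3, a lipase-like droplet protein (0.98), Mlxipl, the carbohydrate-responsive factor ChREBP (0.89), and Me1, malic enzyme (0.79, and 0.74 on its further probe set). Further probe sets of Elovl6 gave -0.08 and 0.78. Fasn, fatty acid synthase, gave 0.39 and Srebf1, the lipogenic member of the SREBP family, 0.30. Probe sets disagreed for Scd1, the desaturase, with a brightest at -0.20 and another at 0.84, and for Acaca, acetyl-CoA carboxylase, at 0.55 and -0.80. Fasn, Srebf1, Scd1 and Acaca all stayed short of 1.5-fold on the brightest probe set.

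In fatty acid oxidation and ketogenesis 4 of 24 measured genes were at least 1.5-fold higher and none lower, with a median of 0.01. They were Fgf21, a fasting hormone (190.9 in control and 422.1 in high-fat liver, 1.06), the acyl-CoA thioesterases Acot1 (0.93) and Acot2 (0.73, but at least 0.18 lower on its further probe set) and Acadl, the long-chain dehydrogenase (0.69). Ppara, the receptor that drives this programme, gave 0.39, and 0.72 to 0.78 on its further probe sets. Cpt1a, the carnitine transferase that admits fatty acids to mitochondria, was at -0.02 on its brightest and 0.61 to 1.03 on its further probe sets. For both genes the dimmer probe sets thus gave higher values.

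Bile acid synthesis and glucose output contained some of the larger lower values. Cyp8b1, the sterol 12-alpha hydroxylase that sets the kind of bile acid made, had 11478 in control and 3490.5 in high-fat liver (-1.81, and -1.64 after loess). Cyp7a1, the rate-limiting enzyme, gave -0.84, and -0.97 on its further probe set. The transporter Slco1a4 gave -1.05 and the reductase Akr1d1 -1.0, the latter with -0.16 on its further probe set. In all 7 of 18 bile acid genes were at least 1.5-fold lower, and 4 after loess, and the list median of -0.49 turned to 0.23 when centred on the spiked-in controls. G6pc, glucose-6-phosphatase, the last step of glucose release, had 31320.5 and 11779 (-1.5, and -1.06 after loess). Irs2, an insulin receptor substrate, gave -0.90, and Igfbp1, a binding protein that insulin represses, -1.0 but -0.44 after loess. Pck1, of gluconeogenesis, gave -0.77 and -0.30 after loess. Of the 18 genes of gluconeogenesis, glycolysis and insulin response 7 were at least 1.5-fold lower and 2 after loess, and this median of -0.28 turned to 0.44 with spiked-in centring.

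The arrays differed at the bright end of the signal. The 100 genes with the brightest signals, all above 29600, all had less signal on the high-fat array (100 of 100), with a median of -0.72 that became -0.12 after loess. Genes were split into 10 equal groups by brightness. The median lay between -0.03 and 0.02 in groups 3 to 9, at -0.31 in the brightest group and at -0.16 and -0.15 in the dimmest 2. The highest signal was 88480 in control and 55050 in high-fat liver. All 18 probe sets of the spiked-in controls bioB, bioC, bioD and cre, RNAs added to every sample in fixed amounts, were lower on the high-fat array as well, with a median of -0.62 (from -0.82 to -0.20). Over the 9457 probe sets of the same range of brightness the median was -0.05. Over that range as a whole, spike signals and liver transcripts thus differed between the arrays to unequal extents. The brightest spike probe sets, both for cre and at mean signals of 29008 and 41971, gave -0.82 and -0.72. The median of the 100 brightest genes was -0.72. Spike probe sets at 26806 and 18452 gave -0.61 and -0.45, while a dim one at 600 gave -0.75.

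**Figure D2:**
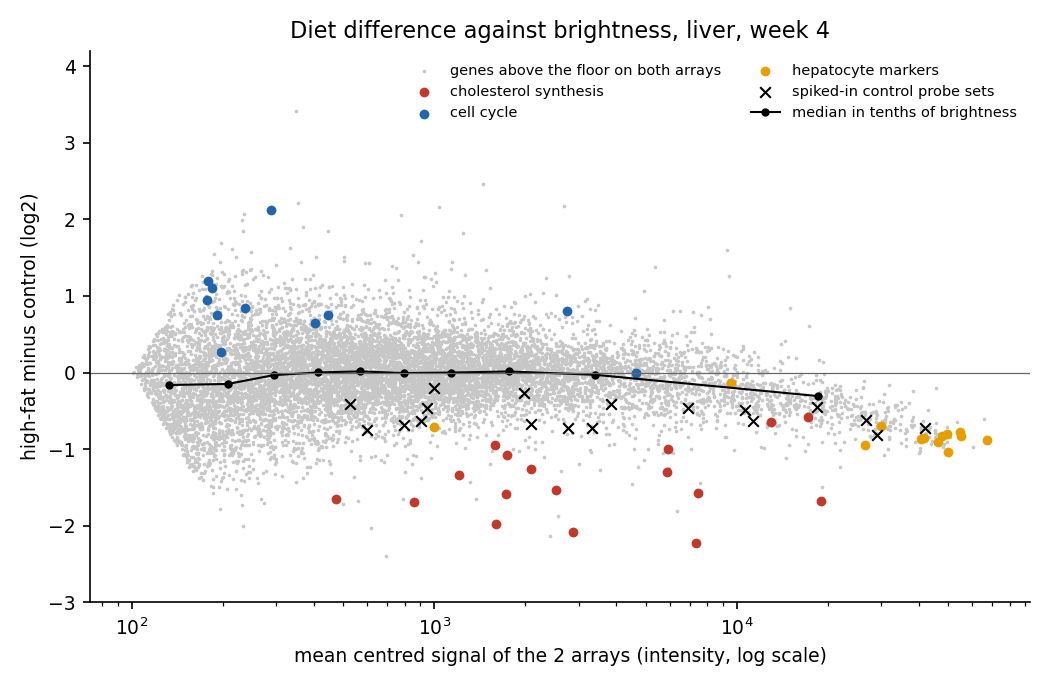
Difference between high-fat and control liver at week 4 (y axis, log2) against the mean signal of both arrays (x axis, log scale), for the 10450 genes above the floor on both. The black line joins the medians of 10 equal groups by brightness and drops to -0.31 in the brightest; hepatocyte markers sit in that bright tail, spiked-in controls (crosses) lie below 0, and genes of cholesterol synthesis lie below the line.

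Lists of very bright liver transcripts were lower before loess and mostly not after it. All 13 measured hepatocyte markers were above the floor on both arrays and had lower values on the high-fat array, 12 at least 1.5-fold, with a median of -0.83 that was -0.16 after loess with 1 still at least 1.5-fold lower. Alb, albumin, for example, gave -1.03 and -0.35 after loess. At least 1.5-fold lower were 8 of 16 genes of lipoprotein assembly, 7 of 18 acute phase genes, 6 of 25 genes of oxidative phosphorylation and 3 of 15 ribosomal protein genes. After loess each of these 4 counts was 0, and their medians lay between -0.08 and 0.00. Under spiked-in centring the 4 medians turned to 0.17, 0.30, 0.27 and 0.28 in that order. Drug-processing P450 and conjugation enzymes went from 6 of 21 lower to 1, with a median of -0.50 that turned to 0.22 under spiked-in centring, while Gstm3, a glutathione transferase, was higher by 1.07 and by 0.51 on its further probe set. Within lipoprotein assembly the higher genes were Apoa4, an apolipoprotein of triglyceride-rich particles (0.84, and 1.44 on its further probe set), and Apoc2, the cofactor of lipoprotein lipase (0.61).

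**Figure D3:**
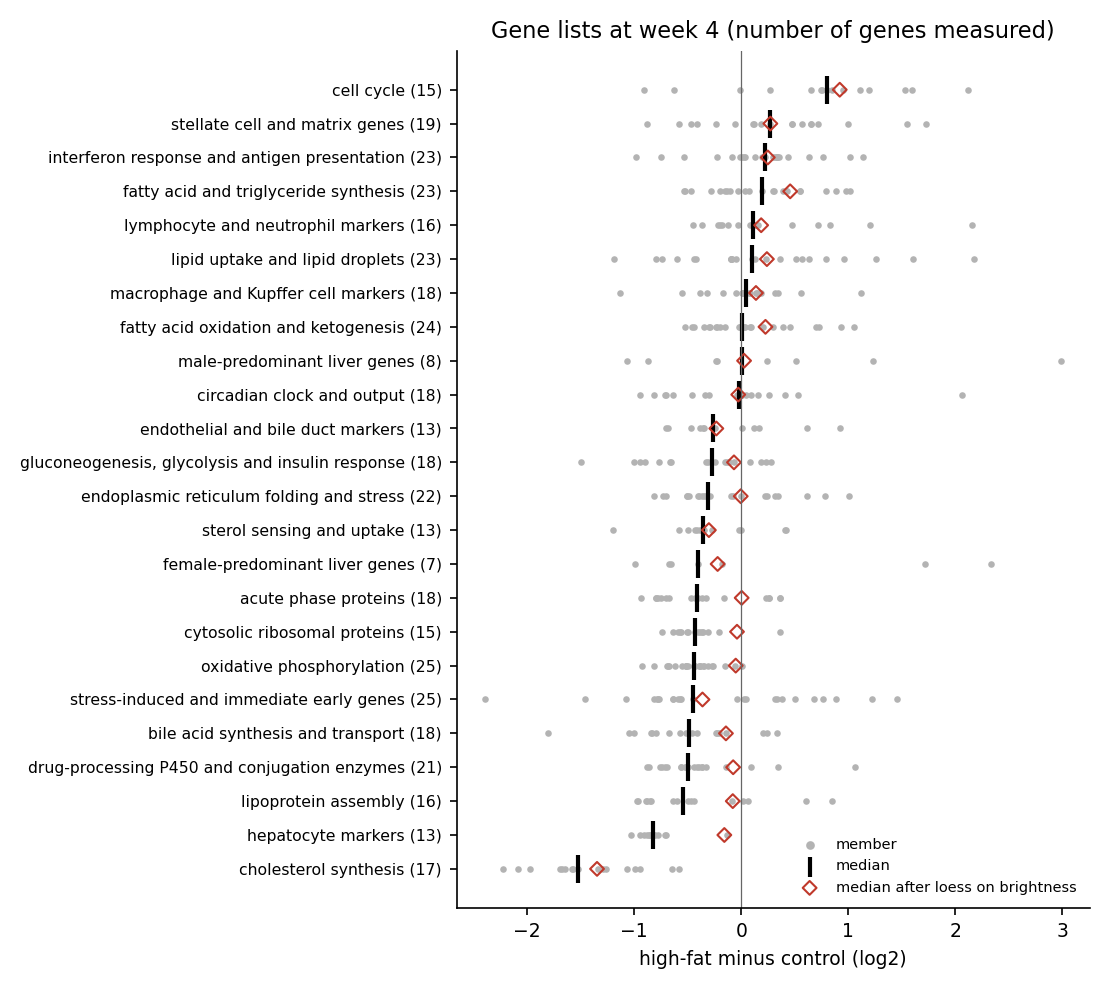
Gene lists at week 4, each with its number of measured genes, along the difference between high-fat and control liver (x axis, log2). Grey points are members, black bars their median and red diamonds the median after loess; cholesterol synthesis (-1.53 and -1.35) and cell cycle (0.80 and 0.92) keep their place after loess, whereas the median of hepatocyte markers moves from -0.83 to -0.16.

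Stress genes went both ways. Ddit4, an inhibitor of the growth kinase mTORC1, was among the lowest genes above the floor, with 1544.4 in control and 312.7 in high-fat liver (-2.39, 5.25-fold), on a single measured probe set. Txnip, a thioredoxin-binding protein, had 7261.8 and 2803.4 (-1.46), and -1.85 on its further probe set. Cdkn1a, the cell cycle inhibitor p21, had 296.0 and 860.4 (1.45) and was at least 2.03 higher on its further probe set. In the whole list of stress-induced and immediate early genes 5 of 25 were at least 1.5-fold higher and 10 lower, with a median of -0.45 that was -0.037 without probe sets shared between transcripts and turned to 0.27 under spiked-in centring. Heat shock genes, listed after the data were seen, had 3 of 14 at least 1.5-fold higher and 1 lower. Hspa1b, an inducible HSP70 chaperone, had 234.0 and 710.1 (1.51), with 1.75 and 1.67 on its further probe sets. Its partner Hsph1 had 550.2 and 1231.3 (1.07), with 1.24 on its further one. The small heat shock gene Hspb1 lay on the other side, at -1.01 and -0.86.

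Further probe sets backed the larger differences in part. Of the genes above the floor on both arrays, 152 were at least 2-fold higher (1.45%) and 230 lower (2.2%), and 69 and 94 of them had a further measured probe set. A second probe set, the next in brightness, lay on the same side for 50 of the 69 (72.5%) and 63 of the 94 (67%), as it did for 59% of all 5501 genes that have one. At least 1 further probe set was at least 1.5-fold the same way, with none the other way, for 32 higher and 41 lower genes, 73 in all. Split into 3 equal groups by brightness, the share was 32.6% of 92 genes in the dimmest, 61.5% of 39 in the middle and 59.4% of 32 in the brightest. Across 4275 genes above the floor on both probe sets, which are not independent replicates and share the same 2 arrays, the brightest and the second probe set had a Pearson's r of 0.29, rising from 0.16 over dim genes to 0.42 over bright ones. Genes of cholesterol synthesis made up 8 of the 41 lower genes, and 9 of all 5501 genes with a further measured probe set.

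**Figure D4:**
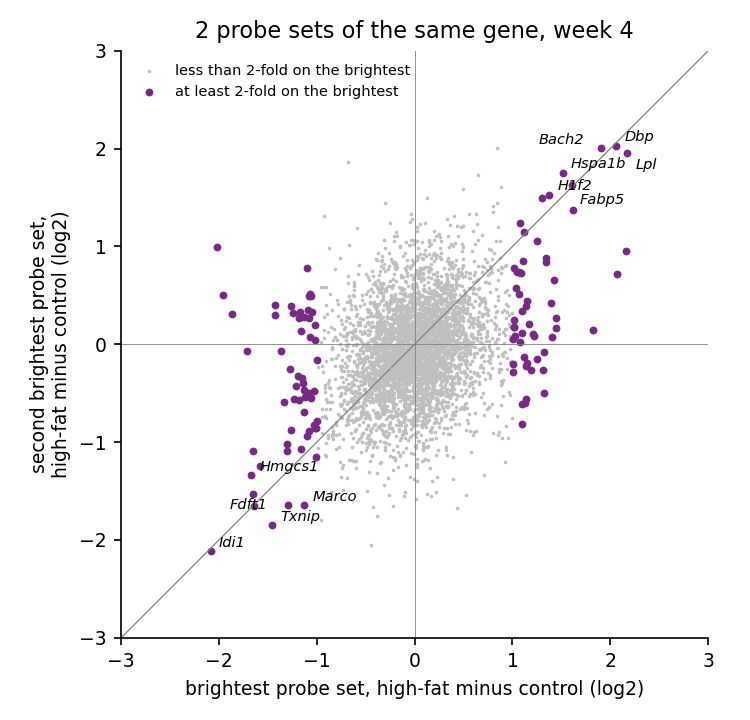
Difference between high-fat and control liver at week 4 on the brightest (x axis, log2) and on the second probe set (y axis, log2) of each gene with both above the floor on both arrays. Purple points are genes at least 2-fold different on the brightest; those near the diagonal, such as Lpl, Dbp, Fabp5 and Idi1, gave like values on both, and many others lie near 0 on the second.

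Among the higher genes backed in this way, Dbp, a transcription factor of circadian output, had 370.1 in control and 1640.5 in high-fat liver (2.06), and 2.03 on its further probe set. Bach2, a transcriptional repressor known from B cells, had 184.3 and 732.5 (1.90), and 2.01 and 0.36 on further ones. D17H6S56E-5 gave 1.85, and at least 1.62 on its further probe set. Nox4, an oxidase that makes hydrogen peroxide, had 184.5 and 602.5 (1.62), and at least 1.23. Gm6958, a predicted gene, gave 1.62 and 1.37. H1f2, a linker histone, had 3242.9 and 8915.1 (1.37), and 1.53. Among the lower genes, Enho, which encodes the liver peptide adropin, had 2360.3 and 796.2 (-1.66), with -1.53 and at least 0.39 lower on further probe sets. Atp6v0d2, a subunit of the vacuolar proton pump, had 1356.9 and 459.5 (-1.65), and -1.09. Marco, a scavenger receptor of macrophages, had 1170.0 and 567.5 (-1.13), and -1.64 on its further probe set. Other Kupffer cell markers gave 0.08 (Clec4f), 0.02 (Vsig4) and 0.14 (Timd4). Inhbb, an activin subunit, gave -1.30 and -1.09, Xrn1, an exonuclease of mRNA decay, -1.40 and at least 1.15 lower, and Rusc2 -1.13 and at least 2.15 lower.

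The larger design adds 2951 measured genes that the arrays of the other weeks do not hold. Of these 50 were at least 2-fold higher (1.69%) and 128 lower (4.34%). Serpina7, thyroxine-binding globulin, which carries thyroid hormone in blood, had 599.3 in control and 3514.0 in high-fat liver (2.46, 5.52-fold). Ppp1r3g, a glycogen-targeting subunit of protein phosphatase 1 in liver, had 4903.4 and 1191.0 (-2.13, 4.38-fold). Neither had a further measured probe set. Other higher genes were Wipf3 (1.85), L3mbtl3 (1.58), the RNA export factor Nxt2 (1.54), Mrgbp (1.51), Fpgt (1.43), Smchd1 (1.41), which silences genes on the inactive X chromosome, and Rflna (1.36). Smchd1 was the member of this group with a further measured probe set, which gave 0.07. Lower were Ccdc13 (-2.01), Zfyve28 (-1.73), Tube1, epsilon tubulin (-1.60), Spns3 (-1.57) and Tafa2 (-1.42), besides Enho and Atp6v0d2. Apart from Ppp1r3g, Enho and Atp6v0d2 these lower genes were dim in high-fat liver, with signals of 111.2 to 135.7.

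Some of the largest differences had 1 array at the floor. Krt23, a type I keratin, read 37.5 in control and 879.8 in high-fat liver, at least 8.47-fold higher. Hsd3b5, a steroid dehydrogenase of male liver, read 42.1 and 823.9, at least 7.93-fold higher, and Cyp3a16, a cytochrome P450, 47.8 and 524.2, at least 5.04-fold. None of the 3 had a further measured probe set. Gga1, a coat adaptor of the trans-Golgi, was at least 2.10 higher on the log2 scale. Pigu, of GPI anchor synthesis, was at least 1.86 higher, with at least 1.09 lower and at least 0.64 higher on further probe sets, which went against each other. Phgdh, the first enzyme of serine synthesis, read 653.7 and 72.6, at least 2.74 lower on the log2 scale, yet was at least 0.59 higher on its further probe set. Fbf1 (2.09), Defb45 (2.06), the potassium channel gene Kcnn4 (1.78) and Nkx2-6 (1.77) were lower by at least the sizes given, the last also on its further probe set (1.26).

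Markers of other cell types were counted in lists. In the lymphocyte and neutrophil list 4 of 16 were at least 1.5-fold higher and none lower, while by any size 9 were higher and 7 lower. Ighm, the IgM heavy chain, had 474.9 in control and 2248.7 in high-fat liver (2.16), but of its 7 further probe sets 4 ran from -0.47 to 0.96 and the other 3, with an array at the floor, were at least 0.06 to 0.26 lower. S100a8 (1.20), Jchain (0.83) and the B cell gene Ms4a1 (0.72) were on single measured probe sets. Other B cell and neutrophil genes were nearer to no difference, with -0.22 for Cd79a, 0.13 for Cd79b and 0.13 for Ngp. In the stellate cell and matrix list 6 of 19 were at least 1.5-fold higher and 1 lower, with a median of 0.27 that was -0.06 when all probe sets of a gene were averaged. The collagen genes Col3a1 and Col4a1 gave 0.72 and 0.65, and further probe sets at least 0.41 higher and 0.49, and Lrat, of retinol storage, 0.65 and 0.80. Col5a2, Tagln and Col1a1 were higher by at least 1.73, 1.55 and 1.0 with the control array at the floor. In the macrophage and Kupffer cell list 1 of 18 was at least 1.5-fold higher, Laptm5 (1.11), whose further probe sets gave -0.22 and -0.13 and a value at least 0.98 lower. Of 4 measured pancreatic acinar genes 2 were at least 1.5-fold lower, Prss2, a trypsinogen (at least 1.72 lower), and the elastase gene Cela3b (-0.86). The list median of -0.64 turned to 0.0796 with spiked-in centring. Of 4 measured adipocyte and muscle genes 2 were lower, Ckm, the muscle creatine kinase (at least 1.09 lower), and Car3, a carbonic anhydrase (-0.68, with -0.81 to 1.03 on further probe sets). Their median of -0.35 turned to 0.060 when probe sets were averaged and to 0.040 with spiked-in centring. Among 13 endothelial and bile duct genes 2 were higher and 2 lower, with a median of -0.26 that turned to 0.028 after quantile normalization and to 0.46 with spiked-in centring.

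The same probe sets can be read at weeks 2 and 10 through the difference within each week, each from 1 array per diet. For cholesterol synthesis 15 genes were measured at each of those weeks. The median was -0.28 at week 2, with 5 at least 1.5-fold lower and none higher (7.25% of 8101 genes were lower), and 0.38 at week 10, with 7 higher and 3 lower (12.9% and 14.3% of 8092). Msmo1 gave -0.63, -2.22 and 2.96 at weeks 2, 4 and 10, Idi1 -0.54, -2.08 and 0.38, and Fdps -0.79, -1.58 and 1.19. These 3 genes were thus low at weeks 2 and 4 and on the other side at week 10. Dbp was higher at each week, by at least 2.43 at week 2 and 2.62 at week 10, and so were Lpl (0.81, 2.17 and 0.52) and Fabp5 (0.89, 1.61 and 3.01). Cdkn1a gave -1.01, 1.45 and -2.23, and Hspa1b 0.00, 1.51 and -1.49. Of the 32 higher genes backed by further probe sets, 24 were measured at week 2, where 5 were at least 1.5-fold higher (8.8% of all genes) and 2 lower, and 26 at week 10, with 7 higher and 4 lower. Of the 41 lower genes, 6 of 27 were lower and 2 higher at week 2, and 3 of 26 lower and 4 higher at week 10.

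**Figure D5:**
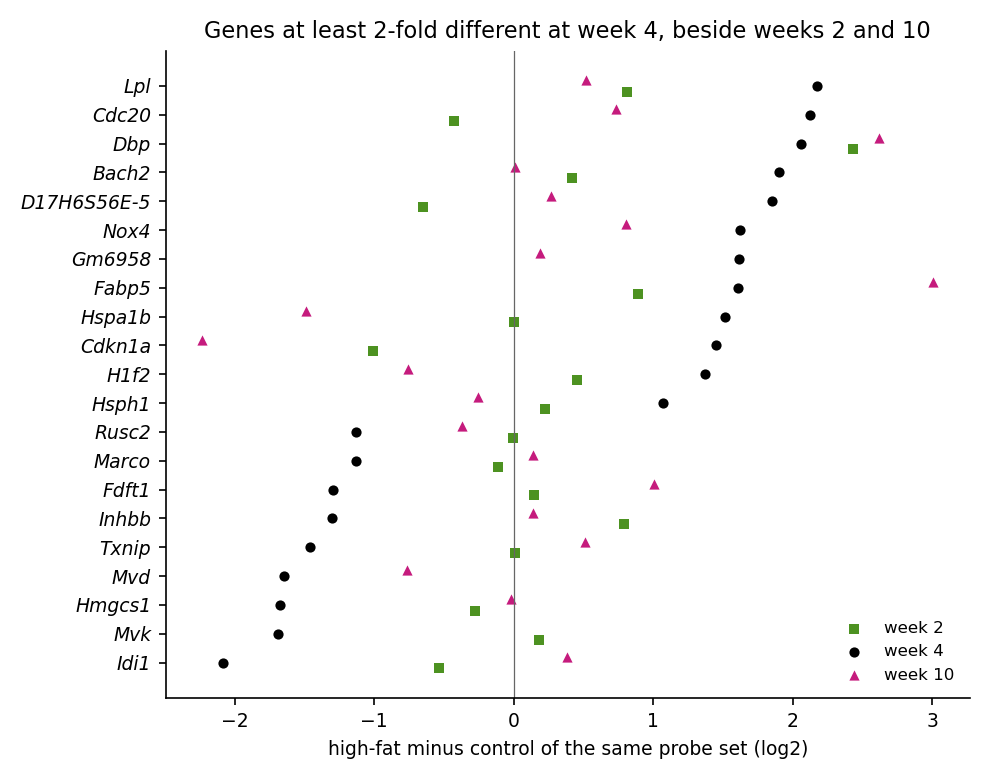
Difference between high-fat and control liver (x axis, log2) of the same probe set at week 2 (squares), week 4 (circles) and week 10 (triangles), for genes at least 2-fold different at week 4, backed by a further probe set and held by both array designs. Each mark is 1 array against 1 array, marks with an array at the floor are bounds, and weeks with both arrays at the floor have no mark; Dbp, Lpl and Fabp5 lie right of 0 at each week, whereas Cdkn1a lies right of it only at week 4.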

How the data were processed

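Total RNA of liver was biotin-labelled and hybridised to 1-colour Affymetrix arrays, per the labels' protocols. Each deposited value is the linear intensity of 1 probe set. The software that made it is not given in the sources, and from the values the authors had scaled both week 4 arrays to a mean of 500.0 after trimming 2% at each end. Starting from those deposited intensities, log2 values were centred on each array's median over probe sets above the floor on both arrays. The floor was the pooled 50th percentile, 6.66 on the log2 scale. Of the probe sets 64 controls were left out, and 45037 were used, 53.9% of them above the floor in control and 46.1% in high-fat liver. Symbols came from the platform annotation (34945 probe sets with 1 symbol, 932 with several, 9160 without a symbol here) and were updated through the gene identifier to RefSeq names of GRCm38.p6 for 34754. The brightest probe set stands for a gene. Loess had a span of 0.3 (statsmodels 0.14.6, Python 3.11.15, numpy 2.4.6, pandas 2.3.3, matplotlib 3.10.9), and the scripts were tested on simulated data. At weeks 2 and 10 the floor was put at the same share of shared probe sets, 33.8%. The number of arrays limits the precision.

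The comparison and the gene lists were chosen with earlier results of these data known. Genes were named by rule. It takes up to 12 genes per direction at least 2-fold different above the floor on both arrays and backed by a further probe set, up to 8 per direction that the larger array alone holds, and up to 5 per direction with 1 array at the floor. It adds up to 4 members of each list by size, all members of the 2 sterol lists, and a panel of lipid and glucose genes. From the other lists not every gene it takes is printed. A few others were picked with their values in view. The alternatives tried were no centring, quantile normalization, loess, floors at the 30th and 70th percentiles, the mean of all probe sets, no shared probe sets, the probe sets of both designs alone, and 1.5-fold and 3-fold thresholds. Centring on the spiked-in controls was added after the data were seen.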

Additional observations from a re-analysis of the deposited data

Results flagged for a closer look

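The list of cholesterol synthesis differed in sign between weeks. Its median difference was -1.53 at week 4 and 0.38 at week 10, each from 1 array per diet, and the difference between the weeks was not tested.

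The cell cycle list also differed in sign, with a median of 0.80 at week 4 and -0.29 at week 2, where 7 of its genes were measured. At week 10 its median was 0.41 over 7 genes, on the same side as at week 4. The differences between these weeks were not tested either.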

How the results depend on the processing

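No paired analysis was possible because each diet has 1 array at week 4 and the labels give no replicate numbers. The counts of genes at least 2-fold higher and lower, 200 and 419, became 669 and 1807 with a floor at the 30th percentile, 71 and 87 at the 70th, and 2203 and 43 with spiked-in centring, and the lower count was 259 after loess. At 1.5-fold they were 853 and 1791, and at 3-fold 26 and 38. The 73 genes backed by a further probe set became 228 and 28 at those floors, 48 with the probe sets of both designs alone and 772 with spiked-in centring, were 52 to 68 under the others, and have no value with the mean of all probe sets. At least 1.5-fold lower members of cholesterol synthesis numbered 10 of 17 with spiked-in centring and 15 to 17 otherwise. The higher members of the cell cycle list numbered 4 at the 70th percentile floor and 9 to 13 under the others. Of the 85 named genes at least 2-fold different, 57 were still so with spiked-in centring, 53 of 82 at the 70th percentile floor and 79 after loess. Named values of at least 1.5-fold that turned with spiked-in centring were Arntl (0.0032), Atp5b (0.022), Atp5g1 (0.035), Car3 (0.040), Cyp2b13 (0.045), Ebp (0.075), Pecam1 (0.038), Rpl7 (0.13), Rps15 (0.079) and the pancreatic acinar median (0.080). Others that turned were Car3 (0.14) and Laptm5 (-0.053) with the mean of all probe sets, Acot2 (-0.18) with the probe sets of both designs alone, Fgb (0.023) after quantile normalization and Pigu (-1.09) without shared probe sets. Apart from what their construction shows, the causes were not tested. Signals near the floor limit the dim genes.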

Other observations

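Of 18 measured circadian genes Dbp was at least 1.5-fold higher and 5 were lower. The median of -0.02 was 0.063 with the values as deposited, 0.051 with the floor at the 30th percentile and 0.69 with spiked-in centring. Lower were Npas2 (-0.94, and at least 0.85 lower on its further probe set), Noct, a rhythmic phosphatase (-0.82), Arntl, the core activator BMAL1 (-0.72, but at least 0.01 higher on its further probe set), Per3 (-0.70, but at least 0.21 to 0.30 higher) and Nfil3 (-0.64). Targets of p53, listed after the data were seen, did not follow Cdkn1a as a group: 3 of 14 were at least 1.5-fold higher and 4 lower. Sesn2 gave -1.02, and at least 1.16 lower on a further probe set, and Mdm2 -0.79 and -0.72, while Fas gave 1.22.

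Interferon response and antigen presentation had 4 of 23 genes at least 1.5-fold higher, namely Ifit2 (1.13), Gbp3 (1.02), Rsad2 (0.76) and Oas1a (0.63), and 2 lower. The lower genes were B2m (-0.98, and -0.85 on its further probe set) and H2-K1 (-0.75, and -0.71 to -0.50 on further ones). The median was 0.22. After loess 4 were at least 1.5-fold higher and none lower. In endoplasmic reticulum folding and stress 3 of 22 were higher and 3 lower, where 6.71% and 14.1% of all genes were, with Chac1 at 1.0 and Pdia4 at -0.82. Genes whose liver level depends on sex went both ways. Hsd3b5 and Serpina12 (1.23), of male liver, and Cyp3a16 and Cyp3a44 (1.72), of female liver, were higher, and Cyp17a1 (-1.0), Cyp2b13 (-0.67) and Ugt2b38 (at least 1.06 in size) lower. Xist had a signal of 8752.4 in control and 7316.6 in high-fat liver (-0.35). Uty had 119.9 and 4.7, at least 0.29 lower on the log2 scale, and Kdm5d 110.3 and 16.7, at least 0.17 lower. For both, the control signal was close to the floor and the high-fat signal below it. Eif2s3y lay at or below the floor on both.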
